A study of Mus musculus with 7 samples.

Results

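The circadian clock genes described here are 10 genes of the molecular clock and its first output: Arntl, Clock, Npas2, Per1, Per2, Per3, Cry1, Nr1d1, Nr1d2 and Dbp. They were taken by symbol from the 32285 genes listed for each library, and each symbol belonged to 1 gene identifier. Their raw counts of unique molecular identifiers (UMIs, each marking 1 captured RNA molecule) were followed across nucleus types and libraries, to ask whether the clock stood at the same point in each library and in mice given ANGPT2 AAV and control AAV. ANGPT2 is angiopoietin-2, a protein that blood vessel cells secrete and that binds the receptor TIE2, and AAV is a viral gene-delivery vector. All 7 mice carried the 5xFAD transgenes (5xFAD +/-), which drive amyloid plaque formation from a neuronal promoter, and no mouse without them was included. They were 6 months old and had been injected behind the eye at 4 months, 3 with Control AAV and 4 with ANGPT2 AAV. Each library held nuclei of 1 mouse from tissue labelled subcortex, thalamus and hippocampus. Batch 1 held a male and a female of each treatment, while in batch 2 there were 2 males, 1 of each treatment, and 1 female given ANGPT2 AAV. The hour at which each mouse was killed is not given in the sources used here.

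In the clock, ARNTL (also called BMAL1) pairs with CLOCK or its relative NPAS2 and activates genes that carry E-box sequences, among them the Per and Cry genes, Nr1d1, Nr1d2 and Dbp. PER and CRY proteins then inhibit the pair, while the nuclear receptors NR1D1 and NR1D2 (REV-ERB alpha and beta) repress Arntl, so that Arntl and Npas2 peak at about the opposite time of day from Dbp, Nr1d1 and the Per genes. In many mouse tissues Nr1d1 and Dbp peak before Per1 and Per2. DBP is itself a transcription factor, which acts through D-box sequences, and its mRNA has one of the steepest daily swings known. Clock mRNA varies little over the day in most tissues.

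Promoter sequence was examined because these genes are known through the elements they share. RefSeq promoter windows (GRCm38.p6) were matched for 9 members, and Per2 had no entry. The 250 bases before each start site were searched on both strands for the E-box CACGTG, the D-box TTATGTAA and AGGTCA, the half-site that REV-ERB and ROR receptors bind. These motifs did not overlap one another in the windows. The E-box was found in Per1 (166 bases before the start) and Cry1 (60 bases before), against 6.02% of all 32851 windows. The D-box was found in Per3 alone, 205 and 158 bases before the start, against 0.819% of all windows. The half-site lay in Clock, Per1 and Nr1d2, against 14.0% of all windows. Below are the stretches of Per3 (chr4:151044666-151044915, minus strand), Per1 (chr11:69098699-69098947, plus strand) and Cry1 (chr10:85185065-85185304, minus strand) that hold an E-box or a D-box, shown in capitals, from 5′ to 3′ in the direction of transcription.

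Per3: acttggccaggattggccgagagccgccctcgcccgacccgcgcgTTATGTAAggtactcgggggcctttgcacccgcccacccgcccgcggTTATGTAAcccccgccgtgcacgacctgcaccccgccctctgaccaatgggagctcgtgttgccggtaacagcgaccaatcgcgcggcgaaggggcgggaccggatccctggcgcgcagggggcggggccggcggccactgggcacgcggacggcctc

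Per1: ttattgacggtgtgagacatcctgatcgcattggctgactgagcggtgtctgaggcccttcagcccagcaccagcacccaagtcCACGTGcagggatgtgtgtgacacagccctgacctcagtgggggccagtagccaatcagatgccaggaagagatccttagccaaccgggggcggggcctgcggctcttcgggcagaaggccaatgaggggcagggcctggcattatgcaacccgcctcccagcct

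Cry1: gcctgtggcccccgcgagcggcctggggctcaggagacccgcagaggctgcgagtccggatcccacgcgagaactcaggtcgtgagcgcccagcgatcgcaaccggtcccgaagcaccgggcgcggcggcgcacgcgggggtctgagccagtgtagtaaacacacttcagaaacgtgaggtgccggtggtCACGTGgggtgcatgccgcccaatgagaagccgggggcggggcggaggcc

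The members whose batch values are given in most detail lie on the GRCm38 assembly at chr7:113207465-113314126 (Arntl, plus strand), chr1:91415982-91459324 (Per2, minus strand), chr4:151003652-151044665 (Per3, minus strand) and chr7:45705088-45710203 (Dbp, plus strand), all protein-coding, and the spans include introns. Arntl overlaps the antisense gene Gm45355 by 2394 bases, Nr1d1 overlaps Thra by 1075 and Dbp overlaps Sphk2 by 737, each on the opposite strand, so without knowledge of strand use in counting their reads there cannot be told apart.

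The 54230 nuclei kept after filtering gave 23146372 to 85953712 UMIs per library, and all 3 libraries of batch 2 had fewer UMIs than any of batch 1. Clustering gave 15 named types, and 8 of 44 clusters, holding 7.38% to 31.2% of the nuclei, stayed unnamed. The markers listed for each type had their highest summed level in that type for 14 of the 15, and the exception was oligodendrocytes, which ranked second on theirs. Barcodes shared between 2 libraries numbered 63 to 137. Medium spiny neurons were spread unevenly, with 8 to 406 nuclei per library in batch 1 and 452 to 1549 in batch 2. Choroid plexus nuclei were absent from both ANGPT2 libraries of batch 2, and the control of batch 2 had 9, under the minimum of 10 nuclei. Levels in choroid plexus therefore come from the 4 libraries of batch 1 only, while those of the other types also cover batch 2. In the sums over whole libraries, fewer nuclei of a type and less RNA per nucleus cannot be told apart. Levels below are CPM, the UMIs of the gene scaled to a common total of UMIs of that library or type. They are compared within a gene, not between genes.

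The 3 activator genes had different orders of types. Npas2 was highest in medium spiny neurons, at 434.6 ± 36.3 CPM (SD, n = 6 libraries), where it ranged above its level in every other type. Thalamic neurons followed with 265.8 ± 32.1 CPM, astrocytes with 229.4 ± 25.6 and excitatory neurons with 223.7 ± 27.9 (n = 7 each), and the ranges of these 3 overlapped. Npas2 was far lower in dentate granule neurons (54.7 ± 16.1 CPM), inhibitory neurons (70.5 ± 16.6), microglia (25.9 ± 8.33) and oligodendrocytes (20.9 ± 3.74). Arntl followed much of this order, with 115 ± 25.1 CPM in thalamic neurons, 103.4 ± 29.3 in excitatory neurons and 94.1 ± 41.2 in astrocytes, whose ranges overlapped. It stood at 52.8 ± 9.89 CPM in inhibitory neurons and 30.1 ± 7.25 in oligodendrocytes. Clock was spread more evenly, with its highest level in oligodendrocytes (224.4 ± 11.7 CPM), 159.8 ± 4.87 in excitatory neurons and its lowest in astrocytes (103.2 ± 12.4).

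The Per genes, which encode repressors of the loop, had their highest means outside neurons. Per3 had its highest mean in astrocytes, at 317.1 ± 93.7 CPM, with fibroblasts at 304 ± 211.9 and ependymal nuclei at 210.2 ± 87.7, and these ranges overlapped. It was lowest in inhibitory neurons, at 36.7 ± 7.0 CPM. The whole span of Per3 lies inside Camta1 on the same strand, so reads from the 2 genes could be assigned to either. Per1 was highest in fibroblasts (158.3 ± 26.3 CPM), mural nuclei (155.3 ± 67.0) and endothelial nuclei (145.9 ± 73.3), with no separation among them. In microglia it stood at 80.4 ± 25.2 CPM, and all 7 libraries had more there than in oligodendrocytes (46.9 ± 10.8). Per2 was highest in choroid plexus (106.3 ± 30.5 CPM, n = 4, all of batch 1) and mural nuclei (88.0 ± 57.2, n = 7, both batches), and stood at 60.7 ± 21.2 in astrocytes. These means cover unlike sets of libraries, so their order is not resolved. It was scarce in oligodendrocytes (9.03 ± 5.05 CPM) and microglia (7.18 ± 4.99), where the 7 libraries together held 204 and 43 Per2 UMIs. Cry1, the only cryptochrome among the 10, was low throughout, from 37.2 ± 23.4 CPM in ependymal nuclei to 11.6 ± 6.66 in microglia, and no neighbouring types in that order separated.

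The REV-ERB genes and Dbp also had their highest means in vascular, ependymal or fibroblast nuclei. Nr1d1 averaged 75 ± 36.9 CPM in endothelial nuclei, 67.9 ± 15.0 in ependymal nuclei and 47.3 ± 10.2 in astrocytes, against 16.2 ± 6.33 in excitatory neurons. Nr1d2 averaged 216.6 ± 60.3 CPM in fibroblasts, 215.8 ± 79.5 in mural nuclei and 142.3 ± 14.8 in astrocytes, against 62.1 ± 14.6 in excitatory neurons. Dbp averaged 105.8 ± 74.7 CPM in mural, 94.5 ± 62.4 in endothelial and 65.9 ± 27.4 in astrocyte nuclei. In excitatory neurons it was 14.1 ± 8.74 CPM and in inhibitory neurons 11.4 ± 4.76. The endothelial and mural Dbp levels rest on 87 and 64 UMIs in all, so their order is not resolved. These orders are descriptions with no test, and of all pairs of neighbours in them 4 had ranges that did not overlap. These were Npas2 in medium spiny against thalamic neurons and in excitatory neurons against choroid plexus, Per1 in microglia against oligodendrocytes, and Nr1d1 in astrocytes against choroid plexus. The pairs with choroid plexus set 7 libraries of both batches against 4 of batch 1. For Nr1d1 the lowest astrocyte library had 35.2 CPM and the highest choroid plexus library 35.1, the latter type holding 24 UMIs in all.

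**Figure D1:**
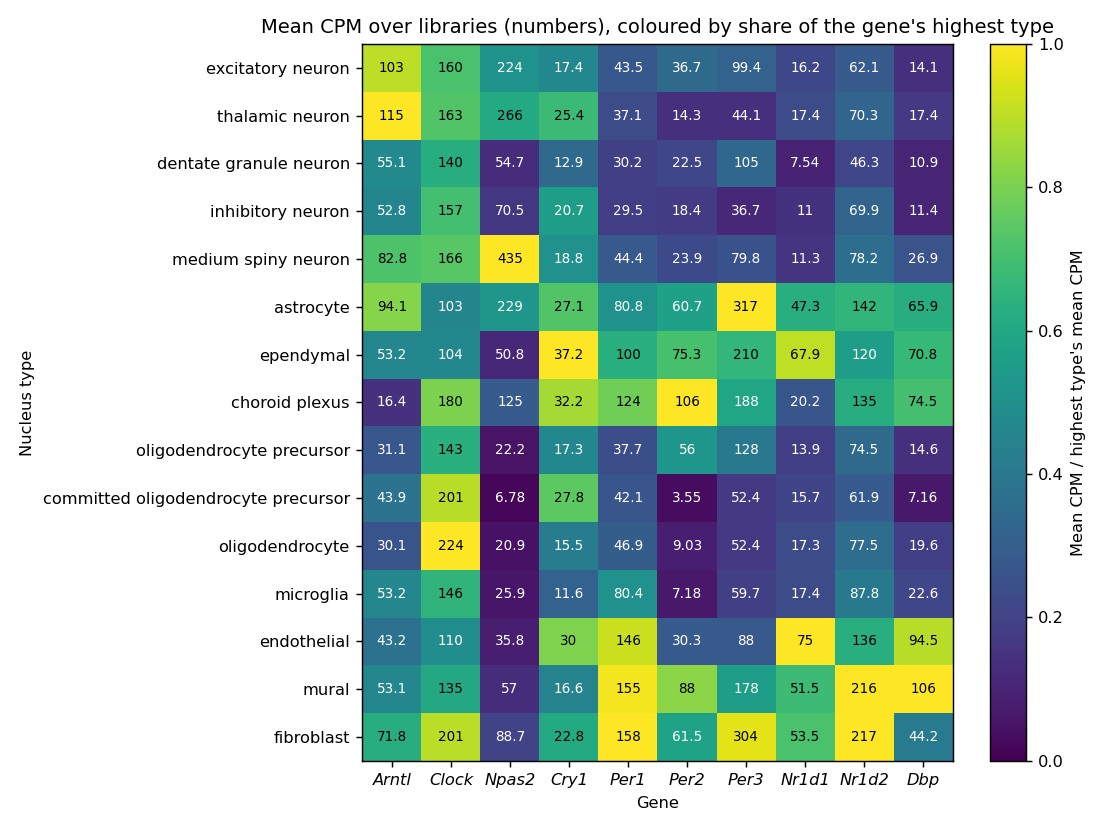
Mean level of each clock gene (columns) in each named nucleus type (rows), in CPM averaged over libraries; colour gives the level as a share of the gene's highest type, so colours compare types within a gene. Npas2 peaks in medium spiny neurons (434.6 CPM), Per3 in astrocytes (317.1 CPM) and Clock in oligodendrocytes (224.4 CPM), while Dbp, Nr1d1, Nr1d2 and Per1 are high in vascular rows and low in neuronal rows.

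Across whole libraries the levels are given in one order: in batch 1 the controls (male, female) and then the ANGPT2 mice (male, female), and in batch 2 the control (male) and then the ANGPT2 mice (male, female). Arntl stood at 71.1, 49.8, 89.2 and 81.8 CPM in batch 1 and at 100.4, 91.3 and 106 CPM in batch 2. Every library of batch 2 was above every library of batch 1, and the control female of batch 1 was the lowest. Npas2 stood at 135, 158.4, 184.5 and 206.6 CPM in batch 1 and at 251, 252.7 and 192.4 in batch 2, with overlap. Clock kept to a narrow band of 159 to 167.3 CPM over all 7 libraries. Cry1 was 15.1, 19.6, 21.0 and 19.7 CPM in batch 1 and 24.6, 16.8 and 15.2 in batch 2, with no separation.

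The Per genes encode repressors of the loop. Per2 stood at 30.2, 45.6, 31.8 and 33.7 CPM in batch 1 and at 28.9, 17.8 and 16.7 in batch 2, and Per3 at 103.1, 128.6, 93.0 and 95.1 and then 82.1, 63.7 and 49.3. For both genes the batches did not overlap. How many of all genes separate by batch in this way, in whole libraries or in classes, was not counted. In the edgeR test of batch given below, 19.5% of all genes had an unadjusted p under 0.05 in whole libraries. Per1 did overlap, with 35.3, 66.9, 42.1 and 49.5 CPM in batch 1 and 52.2, 33.0 and 25.8 in batch 2. Dbp stood at 24.5, 10.8, 20.4 and 32.7 CPM in batch 1 and at 15.5, 16.4 and 7.35 in batch 2. Nr1d1 followed the same order closely, at 18.9, 12.3, 17.4 and 27.0 CPM and then 15.8, 14.2 and 8.97. Nr1d2 stood at 76.3, 56.8, 75.8 and 86.0 CPM and then 78.8, 60.5 and 51.9.

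The same libraries lay at the extremes for several genes. The ANGPT2 female of batch 2 had the highest Arntl and the lowest Dbp, Nr1d1, Nr1d2, Per1, Per2 and Per3 of all 7. The control female of batch 1 combined the highest Per1, Per2 and Per3 of all 7 with the lowest Arntl, and with the lowest Dbp, Nr1d1 and Nr1d2 of its batch. The ANGPT2 female of batch 1 had the highest Dbp, Nr1d1 and Nr1d2 of all.

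**Figure D2:**
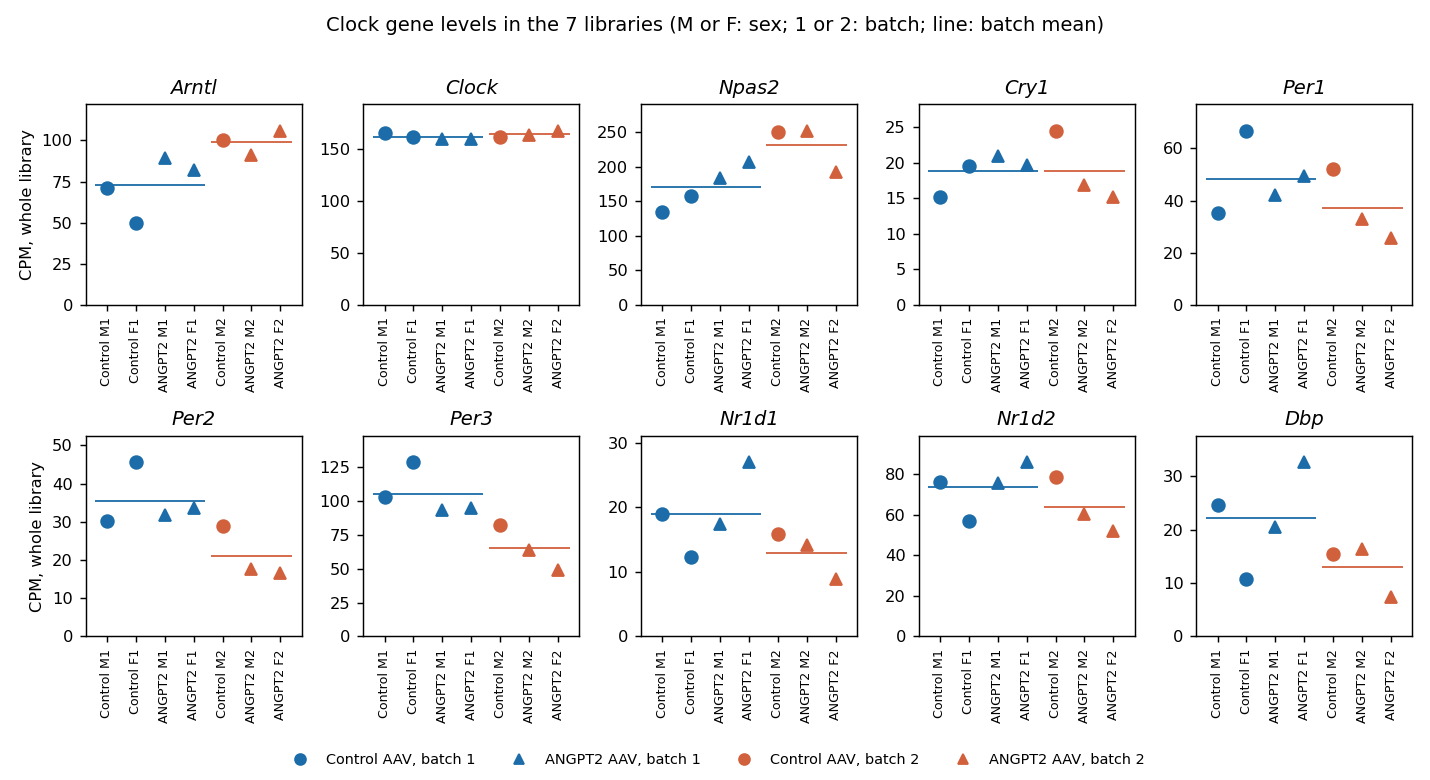
Level of each clock gene in CPM (vertical axes, from 0) in each of the 7 whole libraries (horizontal axes); circles are Control AAV, triangles ANGPT2 AAV, blue batch 1 and orange batch 2, and lines are batch means. Arntl is above 91 CPM in all 3 libraries of batch 2 and below 90 in batch 1, Per2 and Per3 separate the other way, and Clock stays between 159 and 167.3 CPM.

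Treatment was compared first, with all 7 libraries in 1 fit. None of the 10 clock genes passed the threshold (adjusted p under 0.05) in whole libraries, where 0% of the 19959 genes tested passed. At an unadjusted p under 0.05 the members numbered 0 of 10, against 2.77% of all genes, and DESeq2 called 0 of the 10 and 2 genes in all. The estimates leaned apart: the log2 change of Arntl was 0.43 with an SE of 0.20 (unadjusted p = 0.0642), that of Npas2 0.30 (SE 0.21), that of Per1 -0.41 (SE 0.25), that of Per2 -0.44 (SE 0.27) and that of Per3 -0.43 (SE 0.23). Dbp had 0.24 (SE 0.39), Nr1d1 0.17 (SE 0.27), Clock 0.08 (SE 0.11), Cry1 -0.04 (SE 0.17) and Nr1d2 0.03 (SE 0.14). The members' median was 0.06 and that of all tested genes -0.02. With batch as a block the adjusted p of Arntl was 0.982 and its log2 change 0.37, while the changes of Per1, Per2 and Per3 were -0.37, -0.36 and -0.33. Cry1, Nr1d1, Nr1d2 and Dbp changed sign when single libraries were left out. The Per estimates rest in large part on the control female of batch 1: without it the log2 change was -0.09 for Per1, -0.12 for Per2 and -0.18 for Per3, and that of Arntl was 0.25.

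Within nucleus classes, in which the 3 kinds of excitatory neuron were merged, 95 tests of members passed the filter on low counts in 13 classes. Of these 0 passed the threshold, against 0% of all 102017 gene tests. An unadjusted p under 0.05 was found for 5 of the 95, against 3.65% of all tests. Per1 had the most even direction, with a negative log2 change in 12 of 12 classes (median -0.25), and Per2 was negative in 7 of 8 (median -0.37). These classes come from the same mice and are not independent. The smallest p belonged to Per1 in medium spiny neurons, the main projection neurons of the striatum. Its level there was 76.6 CPM in the control female of batch 1 and 58.6 in the control male of batch 2, against 40.1, 28.7, 32.3 and 29.8 in the 4 ANGPT2 libraries. The groups did not overlap, but the control male of batch 1 had only 8 such nuclei and was left out, so the controls were 2. How many of all genes separate by treatment in these nuclei was not counted. The log2 change of Per1 was -0.97 with an SE of 0.21, and in edgeR the p was 0.000561 before adjustment and the adjusted p = 0.991. Without the filter on low counts the adjusted p was 0.00387, and in the other settings tried it was 0.189 or higher.

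Batch, tested with treatment as a covariate, gave a wider pattern. In whole libraries edgeR called 0 of the 10 members, against 1.06% of 20516 genes, while DESeq2, which called 1332 genes (6.49%), called Arntl, Npas2, Per2 and Per3. At an unadjusted p under 0.05 the members were these same 4 of 10, against 19.5% of all genes. The log2 change of batch 2 over batch 1 was -0.60 for Per3 (SE 0.14, adjusted p = 0.076), -0.67 for Per2 (SE 0.17, adjusted p = 0.0944), 0.47 for Arntl (SE 0.13, adjusted p = 0.105) and 0.47 for Npas2 (SE 0.14, adjusted p = 0.122). All of Dbp, Nr1d1, Nr1d2, Per1, Per2 and Per3 had a negative estimate, with a median of -0.54, and all of Arntl, Clock, Npas2 and Cry1 a positive one, with a median of 0.27. The median of all genes was -0.02. These 2 groups of members were set by hand with earlier results known, so their split in sign is a description. The estimates of Clock (0.08, SE 0.11) and Cry1 (0.04, SE 0.17) were smaller than their SE. For Npas2, medium spiny neurons gave 22.5%, 34.1% and 7.96% of the UMIs in batch 2 and 0.0997% to 8.05% in batch 1. How far this moves the whole-library level of Npas2 was not tested, and the class tests hold each class apart. Within medium spiny neurons the log2 change of Npas2 was 0.23 (SE 0.16, unadjusted p = 0.189). It was 0.54 in inhibitory neurons (SE 0.15, unadjusted p = 0.00383, adjusted p = 0.183) and 2.31 in fibroblasts (SE 0.82, unadjusted p = 0.0123, adjusted p = 0.406), the latter from 41 UMIs.

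Within 12 classes 4 of 94 member tests passed the threshold, against 0.494% of all 102440 gene tests. Astrocytes held a pair of them, in opposite directions, with 2.38% of genes called there. Arntl in astrocytes was 54.0, 60.7, 82.1 and 63.6 CPM in batch 1 and 119.1, 110.9 and 168.3 in batch 2, so that the batches did not overlap. Arntl rose by a log2 change of 1.05 (SE 0.18, adjusted p = 0.00703), and it kept its call in 5 of 7 fits that left out 1 library. The call was lost when the ANGPT2 female of batch 1 was left out (adjusted p = 0.0528) and when the control male of batch 2 was (adjusted p = 0.0846). Per2 in astrocytes was 87.7, 78.6, 75.2 and 60.7 CPM in batch 1 and 54.0, 34.5 and 34.1 in batch 2, again without overlap. It fell by 0.79 on the log2 scale (SE 0.18, adjusted p = 0.0357). Only the fit without the control female of batch 1 kept this call, and the other 6 gave an adjusted p of 0.0557 to 0.155.

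The other 2 calls were in vascular nuclei and rest on few UMIs. Both genes passed the filter on low counts there only through the libraries of batch 1, where they were higher. Neither call is therefore separate support for a batch difference. Dbp in endothelial nuclei was 168.7, 125.1, 144.3 and 121.2 CPM in batch 1 and 76.3, 19.1 and 6.67 in batch 2, from 80 UMIs in batch 1 and 7 in batch 2. It fell by 2.27 on the log2 scale (SE 0.53, adjusted p = 0.0242), with 2.64% of genes called in that class. Its summed level was 5.15 times higher in batch 1 (95% exact interval 2.39 to 13.2, for counting error only). The call was lost when the ANGPT2 male of batch 1 was left out (adjusted p = 0.0571), when the ANGPT2 female of batch 2 was (adjusted p = 0.182, log2 change -1.53), and when called doublets were kept (adjusted p = 0.0926). Without the control male of batch 2 the log2 change was -3.64. DESeq2 gave Dbp there a log2 change of -2.28 with no adjusted p, so it was not called. Per3 in mural nuclei (pericytes and smooth muscle) had 29, 16, 22 and 43 UMIs in batch 1 and 1, 0 and 0 in batch 2. That is 288 CPM against 18.5, a ratio of 15.6 (95% exact interval 2.74 to 621). The single UMI of batch 2 came from the control male. Without that library the fitted log2 change was -7.24, against -3.91 with all 7, and both depend on the prior count. It was called in edgeR (adjusted p = 0.0352, the only one of 1491 genes, 0.0671%) and not in DESeq2 (adjusted p = 0.576). With called doublets kept the adjusted p in edgeR was 0.0658. Leaving out 1 library gave an adjusted p of 0.0449 to 0.210, and the call was kept in 2 of the 7 such fits, those without the control male and without the ANGPT2 female of batch 1.

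Below the threshold, Arntl, Per2, Per3 and Dbp had one direction of batch difference in every class tested. The classes come from the same mice, so neither they nor the class tests counted here are independent. The share of all genes with one direction in every class was not counted. An unadjusted p under 0.05 was found for 36 of the 94 member tests (38.3%), against 12.3% of all gene tests. Per3 was lower in batch 2 in 12 of 12 classes, with 9 at that level, Dbp in 9 of 9 with 7, and Per2 in 7 of 7 with 4. Of all gene tests 6.32% were lower at that level and 6.02% higher. Arntl was higher in 8 of 8 classes, with 6 at that level. Nr1d1 was lower in 7 of 8 with 4, and Per1 in 11 of 12 with 1. Npas2 was higher in 7 of 8 with 2, Clock higher in 10 of 12 with 2, Nr1d2 lower in 9 of 12 with 1 and Cry1 higher in 3 of 6 with 0. In oligodendrocytes, the myelin-forming cells, 6 of 10 members were at that level, against 14.3% of genes there, and 0 passed the adjusted threshold. Per2 there was 15.8, 14.4, 11.5 and 7.31 CPM in batch 1 and 7.72, 2.99 and 3.46 in batch 2 (log2 change -1.21, SE 0.33, adjusted p = 0.121). Nr1d1 there was 20.6, 16.7, 23.4 and 29.5 CPM and then 13.3, 5.98 and 11.8 (log2 change -1.05, SE 0.27, adjusted p = 0.11). In these 7 libraries the batches did not overlap for Nr1d1, and for Per2 the ANGPT2 female of batch 1 lay below the control male of batch 2. In microglia, the resident immune cells, Nr1d1 had 30, 23, 13 and 21 UMIs in batch 1 and 8, 1 and 1 in batch 2 (log2 change -1.49, SE 0.51, adjusted p = 0.326). Dbp there was 23.0, 20.0, 30.2 and 44.3 CPM and then 9.30, 26.0 and 5.30 (log2 change -1.41, SE 0.44, adjusted p = 0.269), and the ANGPT2 male of batch 2 lay among the libraries of batch 1.

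**Figure D3:**
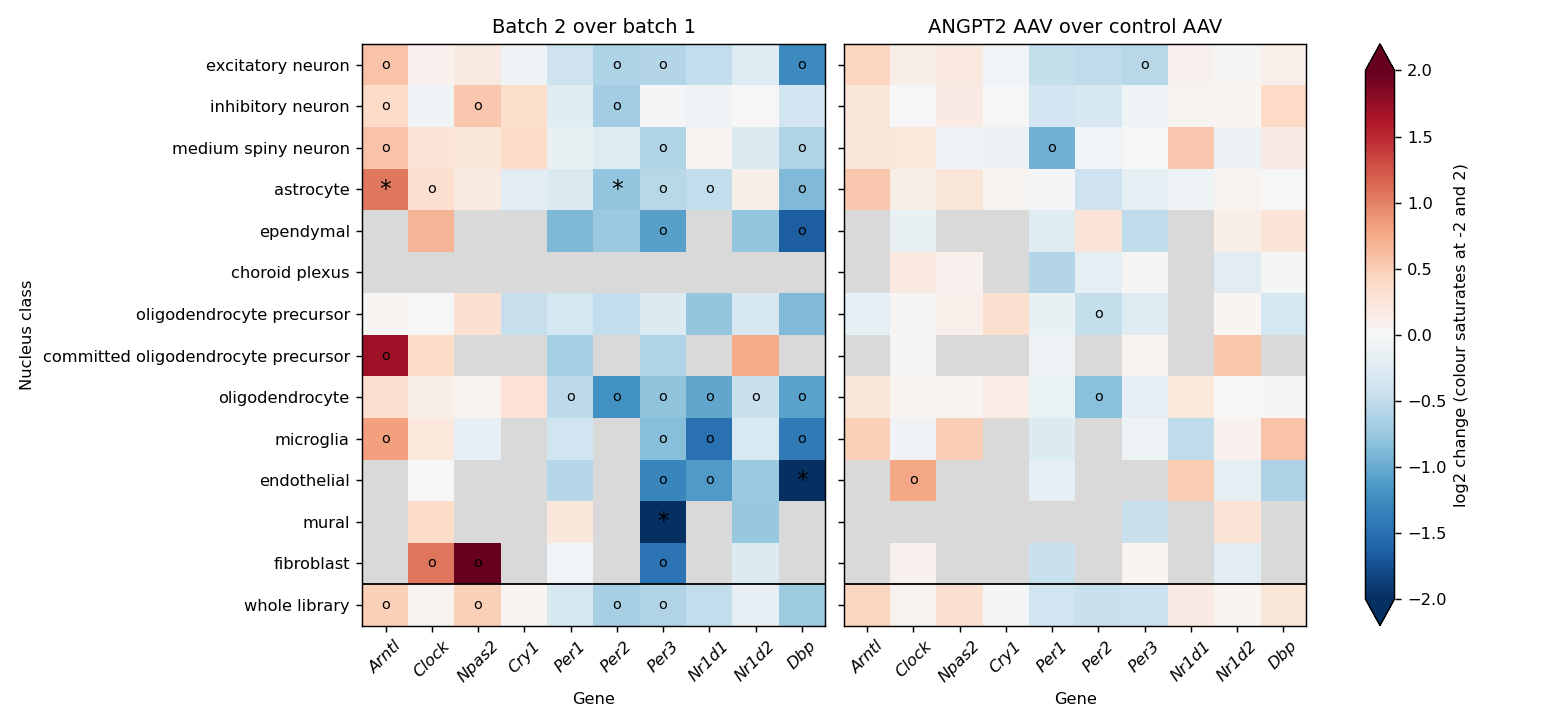
Log2 change of each clock gene (columns) in each nucleus class and in whole libraries (rows), for batch 2 over batch 1 (left) and ANGPT2 AAV over Control AAV (right); an asterisk marks an adjusted p under 0.05, a circle an unadjusted p under 0.05 only, and grey a gene or class not tested. On the left 4 class tests carry an asterisk and the Per, Nr1d1 and Dbp columns are mostly blue; on the right there is none.

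To follow the 2 arms of the loop with each class weighted alike in every library, each gene's log2 CPM was centred over the 7 libraries within a class and averaged over the 5 classes with at least 100 nuclei in every library (astrocytes, excitatory and inhibitory neurons, microglia and oligodendrocytes). Per2 and Cry1 passed the filter on low counts in 4 of the 5. The excitatory class still mixes 3 kinds of neuron, with 22 to 494 thalamic and 93 to 678 dentate granule nuclei per library. The arm index is the mean of Dbp, Per1, Per2, Per3, Nr1d1 and Nr1d2 minus the mean of Arntl, Clock, Npas2 and Cry1. The arms were set by hand with earlier results known, and placing Clock and the repressor gene Cry1 with Arntl was a choice. The index is therefore a description with no p. It was 0.58, 0.30, 0.19 and 0.39 in batch 1 and -0.28, -0.40 and -0.78 in batch 2. Every library of batch 1 was positive and every library of batch 2 negative, with means of 0.37 ± 0.17 (SD, n = 4) and -0.49 ± 0.26 (SD, n = 3). The batch difference of -0.85 had the same sign in each of the 5 classes, from -0.50 in inhibitory neurons to -1.13 in microglia.

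By treatment the index overlapped widely, with means of 0.20 ± 0.44 for the 3 controls and -0.15 ± 0.54 for the 4 ANGPT2 libraries (± SD). The difference was -0.35 over all libraries, -0.15 in batch 1 and -0.31 in batch 2, each smaller than the batch difference. With 1 library left out it ranged from -0.14 without the ANGPT2 female of batch 2 to -0.59 without the batch 2 control. Batch 2 held 2 of the 4 ANGPT2 mice and 1 of the 3 controls.

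**Figure D4:**
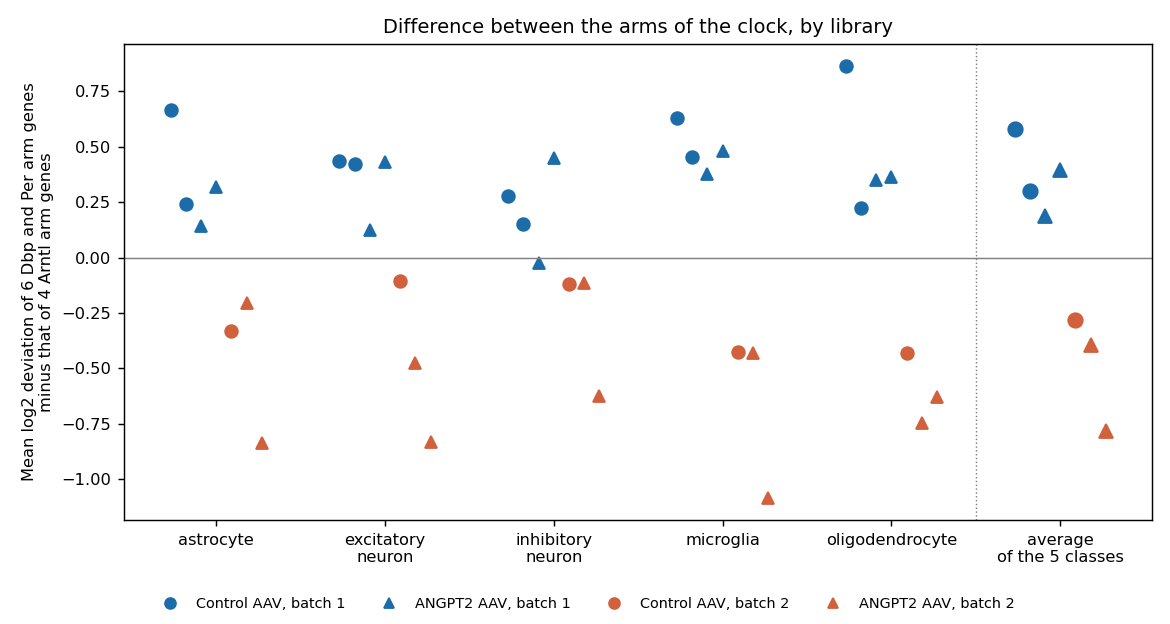
Arm index (vertical axis, log2 units) of each library in each of 5 nucleus classes and averaged over them (horizontal axis); circles are Control AAV, triangles ANGPT2 AAV, blue batch 1 and orange batch 2. Averaged over classes, batch 1 lies between 0.19 and 0.58 and batch 2 between -0.78 and -0.28, and circles and triangles are mixed.

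The relation of Arntl to each of the other 9 genes over the 7 libraries was computed on the same class-averaged levels. Per2 was the closest, with Pearson's r = -0.88 (exact permutation p = 0.00933, 0.0839 after adjustment over the 9 relations) and Spearman's rho = -0.96 (exact permutation p = 0.00278, adjusted p = 0.025), both two-sided. For Per3 r was -0.79 (exact permutation p = 0.0442, adjusted p = 0.133), for Nr1d1 -0.75 (adjusted exact permutation p = 0.135), for Per1 -0.72 (adjusted exact permutation p = 0.133) and for Dbp -0.59 (adjusted exact permutation p = 0.255). Without the 2 libraries farthest from the median of Arntl, both controls of batch 1, the order changed: r was -0.97 for Nr1d2, -0.96 for Dbp, -0.93 for Nr1d1, -0.75 for Per2, -0.71 for Per1, -0.70 for Per3 and 0.82 for Clock. The batches did not overlap in Arntl, and the relations were not tested within a batch. With each batch's mean removed, r was -0.50 for Per2, -0.47 for Per1, -0.08 for Per3, -0.11 for Nr1d1 and 0.18 for Dbp, all closer to 0 than before.

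The other genes of the clock pathway were followed through a list of 20, among them Cry2, the ROR receptors, the DBP relatives Tef and Hlf, and kinases and ubiquitin ligases that act on PER and CRY. For treatment 0 of 20 passed in whole libraries, with 1 at an unadjusted p under 0.05. This was Rorb, a receptor that competes with REV-ERB for its sites, at 171.4, 165.8 and 177.8 CPM in controls and 250.6, 235.6, 196.5 and 248.4 in ANGPT2 libraries (log2 change 0.52, SE 0.12, unadjusted p = 0.00185, adjusted p = 0.998). In a finer clustering Rorb was among the top genes of a cluster of excitatory neurons. How far the mix of nuclei moves its whole-library level was not tested. The next by p were Rora (log2 change 0.27, unadjusted p = 0.0709) and Nfil3, a repressor at D-box sites (log2 change -0.88, unadjusted p = 0.075), which had 10.9 CPM in the control female of batch 1 and 2.68 to 4.20 elsewhere.

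For batch 1 of the 20 passed, against 1.06% of all genes. Ciart, which encodes a repressor of CLOCK and ARNTL, was 16.4, 14.0, 12.1 and 20.2 CPM in batch 1 and 8.69, 4.28 and 3.61 in batch 2. It fell by 1.46 on the log2 scale (SE 0.24, adjusted p = 0.0428). In astrocytes Ciart had 83, 25, 26 and 53 UMIs in batch 1 and 4, 4 and 0 in batch 2 (adjusted p = 0.00963). It passed the filter on low counts there only through the libraries of batch 1. Bhlhe40 (log2 change -0.58, adjusted p = 0.114) and Usp2 (log2 change -0.45, adjusted p = 0.116), both known targets of the clock, did not pass in whole libraries. In classes 4 of 160 tests of these genes passed, against 0.494% of all gene tests: Ciart in astrocytes and in medium spiny neurons (log2 change -1.74, adjusted p = 0.0453), and 2 others. Usp2 fell in astrocytes (log2 change -0.67, adjusted p = 0.0409), and Tef fell in endothelial nuclei (log2 change -1.58, adjusted p = 0.0405). Over the 20 genes in whole libraries 15 had a negative estimate and 5 a positive one, against 10751 negative of all 20516. With the correction for gene length described next, Ciart had a log2 change of -1.34 in whole libraries (adjusted p = 0.0558) and -1.66 in medium spiny neurons (adjusted p = 0.0846), so that both calls were lost, and the other 3 class calls were kept.

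Gene length moved with batch as well. The median log2 change of batch 2 over batch 1 was -0.11 for genes under 10 kb and 0.09 for genes of 100 kb or more in whole libraries, and -0.28 and 0.11 in astrocytes. In endothelial nuclei the medians ran the other way, at 0.06 and -0.05. Genes under 10 kb took 7.26% to 8.84% of UMIs in batch 1 and 6.23% to 7.77% in batch 2. Dbp (5116 bases) and Nr1d1 (7402 bases) are among the short genes, and Arntl (106662 bases) and Npas2 (169506 bases) among the long ones, so the 2 axes run partly together. Per2 (43343 bases) and Per3 (41014 bases) lie in the middle range, where the median of all genes was -0.01 in whole libraries and 0.00 in astrocytes. By treatment the medians of short and long genes were -0.08 and 0.09 in whole libraries and -0.13 and 0.13 in excitatory neurons. This axis therefore also bears on the treatment estimates. With each library's length trend removed, treatment again gave 0 calls among 95 member tests, and 0 among all 101958 gene tests.

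Each member's batch change was therefore fitted again with each library's trend on gene length removed. All 4 class calls remained, against 0.424% of all gene tests called, with a log2 change of 0.93 for Arntl (adjusted p = 0.013) and -0.83 for Per2 (adjusted p = 0.0262) in astrocytes, -2.32 for Dbp in endothelial nuclei (adjusted p = 0.0174) and -3.88 for Per3 in mural nuclei (adjusted p = 0.0429). An unadjusted p under 0.05 was found for 33 of 94 tests (35.1%), against 11.5% of all gene tests. In astrocytes the log2 change of Dbp went from -0.89 to -0.61 and that of Nr1d1 from -0.49 to -0.26. The arm index became 0.43, 0.27, 0.19 and 0.27 in batch 1 and -0.32, -0.31 and -0.57 in batch 2.

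**Figure D5:**
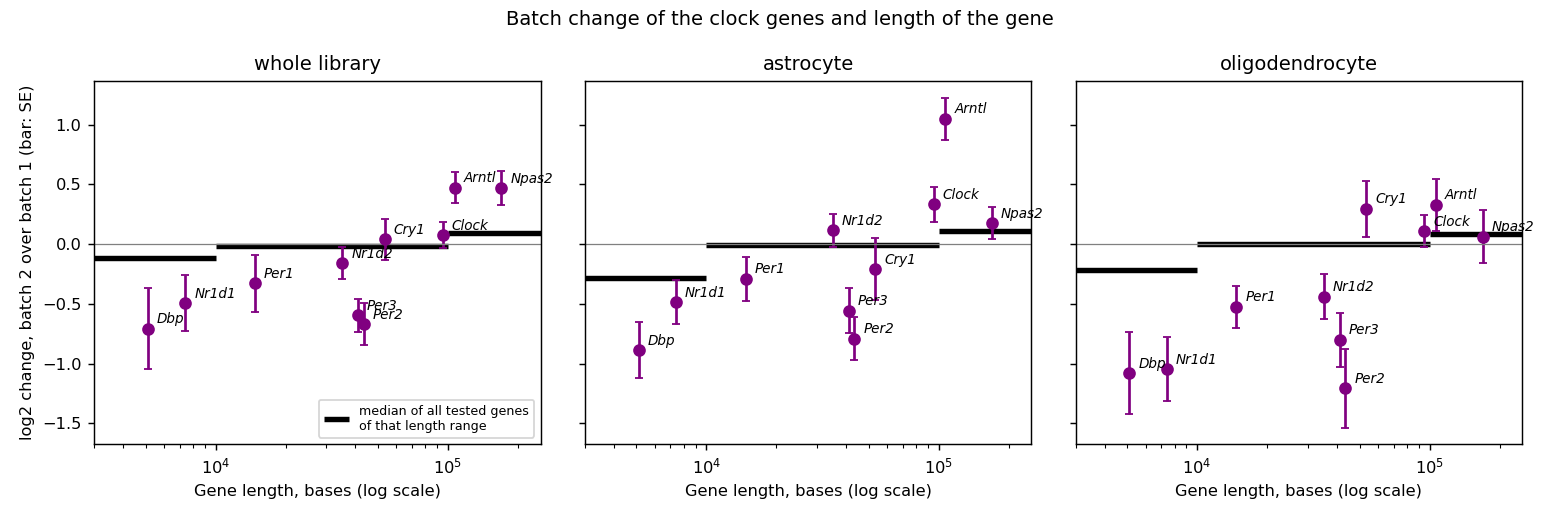
Log2 change of batch 2 over batch 1 (vertical axis; bars are standard errors of the fit) of each clock gene against the length of the gene in bases (horizontal axis, log scale), in whole libraries, astrocytes and oligodendrocytes; black lines are the median of all tested genes in 3 length ranges. Short genes have a lower median (-0.11, -0.28 and -0.22) than long ones (0.09, 0.11 and 0.09), and Per2 and Per3 lie below the median of their own range in each panel.

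Genes that tracked a member were ranked among 7836 genes over 35 points, the 7 libraries in each of the 5 classes, each class centred. The points share libraries and depth, and the r values are descriptions. Tef, a relative of Dbp that binds the same sites, had the highest r with Dbp of all genes, 0.81. The next 9 were Dynlt1b, Tsen34, Gm3448, Ppia, Psmc3, Higd2a, Rab3a, Tle5 and Gng3 (0.76 to 0.80), and the lowest 5 were Dip2c, Abcc5, Zfp407, Trappc9 and Gm26917 (-0.77 to -0.80). With each batch's mean removed Tef fell to 0.62, below Tsen34 (0.87), Dynlt1b (0.74), Rab3a (0.73), Gng3 (0.71), Gm3448 (0.70), Tle5 (0.66) and Ppia (0.63). It was also below Hlf (0.71), another relative of Dbp. Among the members ranked, which left out Per2 and Cry1, Nr1d2 (0.66), Nr1d1 (0.63) and Per3 (0.58) were closest to Dbp and Clock the farthest (-0.73). With batch means removed these were 0.57, 0.32, 0.11 and -0.68. With Arntl, the 10 highest were Fggy, Elf2, Ints6, Tle4, Dyrk1a, Ppp6r3, Cep63, Oma1, Trp53bp1 and Tbl1x (0.77 to 0.89), and the 5 lowest were Bax, Tcf25, Lsm7, Cldn11 and Psmc4 (-0.81 to -0.88). Of the clock genes Usp2 (-0.70), Bhlhe40 (-0.65) and Tef (-0.64) had the lowest r with Arntl. Removing batch means gave -0.16 for Usp2, -0.41 for Bhlhe40 and -0.02 for Tef. The 10 highest then had 0.34 to 0.74 and the 5 lowest -0.45 to -0.60.

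Sex, tested with treatment and batch as covariates, gave 0 calls among the 10 members in whole libraries, against 0.0292% of all genes, and 0 of 10 at an unadjusted p under 0.05, against 4.34%. In classes 0 of 94 member tests passed, against 0.0937% of all tests. At an unadjusted p under 0.05 there were 5 of 94 (5.32%), against 4.41%, and all 5 were Per3, lower in females. The largest was in endothelial nuclei (log2 change -1.39, SE 0.40, adjusted p = 0.999). Per3 was lower in females in 10 of 12 classes. It was higher in excitatory neurons (log2 change 0.14) and committed oligodendrocyte precursors (0.41), and in whole libraries its log2 change was 0.03.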

How the data were processed

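Single-nucleus libraries of 7 mice were read as raw UMI counts per gene and nucleus, which the authors made with Cell Ranger 6.1.2 on mm10, per the submitters' processing notes, and deposited without normalization. Whether intronic reads or strand were used in counting is not given in the sources used here. Barcodes needed at least 300 genes and at most 5% mitochondrial UMIs (58169 of 58286 passed). Doublets were called by comparison with simulated pairs (3939). All 58169 passing barcodes were clustered (scanpy 1.11.5, Leiden resolution 1, 2500 variable genes without 30 clock genes), and clusters were named from marker lists. The called doublets were then left out of the sums, which kept 54230 nuclei. UMIs were summed per library and per class with at least 10 nuclei. Sums were tested with edgeR 4.0.16 (quasi-likelihood, TMM, filterByExpr with a minimum count of 10, Benjamini-Hochberg over all genes tested), and with DESeq2 1.42.0 as an alternative. Each library is 1 mouse, and it is the replicate.

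Treatment was fitted with no covariate, batch with treatment, and sex with treatment and batch. The replicate number marks a batch per the labels, so it pairs libraries of both treatments. As a check, the batch differences of the control and ANGPT2 libraries correlated over 19959 genes (r = 0.47). Gene length was the span in the GRCm38 annotation, and the correction for it was chosen after seeing the data. On simulated data the whole-library treatment test recovered 56 of 99 genes changed by a log2 change of 1 and 90 of 97 changed by 2. The simulated counts held no batch difference, and their dispersions were estimated with batch in the model. The treatment test of the real libraries had no batch term, so its recovery could be lower. The members and lists were chosen with earlier results of these data known. All 10 members are named. Of the other clock genes, those that passed in whole libraries and the 3 with the smallest p for treatment and for batch are named, and for likeness the 10 highest and 5 lowest r with Dbp and with Arntl. Others in classes were named after their values were seen. Intervals cover counting error only.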

Additional observations from a re-analysis of the deposited data

Results flagged for a closer look

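For 4 members the class-averaged level of the ANGPT2 libraries lay wholly on one side of the controls in one batch or sex and wholly on the other side in the other; these differences were not tested. Values are ANGPT2 minus control in log2 units. Clock had -0.11 in batch 1 and 0.22 in batch 2. Npas2 had 0.33 in batch 1 and -0.072 in batch 2. Nr1d2 had 0.15 in batch 1 and -0.073 in batch 2. Per1 had -0.82 in females and 0.13 in males, where the only control female, that of batch 1, held the highest Per1 of all 7 libraries. Each contrast rests on 1 or 2 libraries a side. All 10 members were compared in this way by batch and by sex, and how many of all genes separate so was not counted. Among the 4 ANGPT2 libraries, no single one stood apart by Dixon's test in any of the 21 tests made, over whole-library CPM and class-averaged levels of the members and the arm index. The 3 controls are too few for it.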

How the results depend on the processing

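With the replicate block (batch in the fit), treatment gave 0 genes called in whole libraries and 0 member tests called in classes, as without it, and no call of a member changed. DESeq2 called 2 genes for treatment in whole libraries and 23 for sex, against 0 and 6. Without the filter on low counts 1 member test was called for treatment in classes, against 0. The count of genes called for batch in whole libraries, 218, was 21 with the gene-length correction, 1332 in DESeq2, 790 without the filter and 21 with sex as a covariate. Leaving out 1 library gave 1 to 580, with 580 without the ANGPT2 female of batch 2 and 145 without the control female of batch 1, and 10 or fewer without each of the other 5. The 4 member tests called for batch in classes became 15 without the filter and 2 with doublets kept, and 1 to 9 with 1 library left out, 9 being without the control female of batch 1. In whole libraries DESeq2 called Arntl, Npas2, Per2 and Per3 for batch, and edgeR without the filter called Per2 and Per3. Of the relations with Arntl 0 passed on Pearson's r, 1 with whole-library levels, and 0 to 1 with 1 library left out.

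Some estimates changed sign when 1 library was left out. For treatment Cry1 ranged from -0.21 to 0.10, and was 0.019 without the batch 1 control female, 0.10 without the batch 2 control and 0.0094 without the batch 2 ANGPT2 female. Nr1d1 ranged from -0.082 to 0.36 and Dbp from -0.067 to 0.59, both negative without the batch 1 ANGPT2 female. Nr1d2 ranged from -0.054 to 0.12, and was -0.054 without the batch 1 control female, -0.0083 without the batch 1 ANGPT2 male and -0.035 without its ANGPT2 female. For batch Cry1 ranged from -0.19 to 0.16, and was -0.078 and -0.19 without each control male. The causes were not tested. Of 425 alternative values 385 kept their direction and call, or, where they are counts or values without a test, moved little. Depth limits the small classes, where a library can hold 0 or 1 UMI of a member.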
